A study of Mus musculus with 18 samples.

Results

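The complement system was followed here through 8 genes taken by name: the C1q chains C1qa, C1qb and C1qc, the central component C3, the alternative pathway genes Cfb and Cfp, and the receptors C3ar1 and C5ar1. A probe set with 1 gene symbol was found for 7 of the 8, among 19752 genes so measured, and each of the 7 had a single such probe set: 10517517 for C1qa, 10517508 for C1qb, 10517513 for C1qc, 10450325 for Cfb, 10603860 for Cfp, 10547657 for C3ar1 and 10560242 for C5ar1. C3 was not analysed here. All 7 passed the filter on low values, which asks that 2 or more arrays have a log2 signal over their own 30th percentile: 6 of them did so on 18 of 18 arrays and C5ar1 on 17.

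RNA of mouse dendritic cells and of sorted myeloid cells was hybridised to 18 arrays, 9 from BRAF and 9 from WT mice. All mice carried the floxed allele BRAFV600E(CA-flox). BRAF mice also carried CD11c-Cre, which acts where the promoter of the integrin CD11c is active, and WT mice were CD11c-Cre negative littermates. The BRAF and WT bone marrow derived dendritic cells (BMDC) were grown from marrow of 5-week-old mice and sorted as live CD11c+CD11b+ cells, with 3 arrays per genotype. CD11b+ cells of liver and lung and CD103+ cells of lung came from 14-week-old mice, with 2 arrays per genotype in each population. Mice were not manipulated and cultures were not treated. Whether replicates are separate mice or cultures is not in the labels, so p-values here cover the spread among these arrays alone, and that spread may be technical. CD11c is carried by dendritic cells and also by some tissue macrophages, and no further gate is named for the organ populations.

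Complement is a cascade of blood and tissue proteins that marks targets for uptake and draws in leukocytes. C1q, a hexamer of C1qA, C1qB and C1qC trimers, recognises antibody-coated or dying cells and starts the classical pathway; unlike most components, which the liver supplies, it is made mainly by macrophages and by some dendritic cells. Factor B (Cfb) forms the catalytic subunit of the alternative pathway convertase, and properdin (Cfp) stabilises that convertase and is released by myeloid cells. C3ar1 and C5ar1 are the G protein coupled receptors of the peptides cut from C3 and C5, and myeloid cells carry both.

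The sorted surface proteins matched their transcripts. Itgae, which encodes CD103, had a log2 signal of 10.60 to 12.18 on the 4 lung CD103+ arrays and 5.74 to 7.65 on the other 14 arrays. Xcr1, a receptor of type 1 dendritic cells, stood at 12.22 to 12.58 and 5.41 to 7.62 in the same split. Itgam, which encodes CD11b, was 9.32 to 11.92 on the BMDC and CD11b+ arrays and 6.87 to 8.39 on the lung CD103+ arrays. Flt3, a growth factor receptor of conventional dendritic cells, was at 5.55 to 6.02 in BMDC, at or below the 37th percentile of each array. It was a low member of its list: the mean log2 of 9 conventional dendritic cell markers, Flt3 included, was 8.05 to 8.53 in BRAF and 8.76 to 8.79 in WT BMDC. Array medians ran from 93.7 to 113.2 intensity units. The log2 values were spread least on BRAF BMDC replicate 2 and WT liver CD11b+ replicate 3, with interquartile ranges of 1.90 and 1.92.

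The upstream sequence of 3 members is shown because these genes lead the comparisons below: C1qb and C1qc both fell in CD103+ against CD11b+ lung cells of WT mice, and C3ar1 had the smallest p of the members between genotypes in lung CD103+ cells. The 3 C1q genes lie side by side on chromosome 4, with 0 other genes listed between them. RefSeq's table (build GRCm38.p6) held an entry for 6 of the 8 members; C1qa and Cfb are named only. Each line gives the 250 bases before the start used in that table, read from the minus strand, 5′ to 3′. The windows are chr4:136886201-136886450 for C1qb, chr4:136892915-136893164 for C1qc and chr6:122856158-122856407 for C3ar1. The listed span of the C1qc gene reaches 136892936, so the last bases of its window lie inside that span. Capitals mark GAGGAA, the core of sites for the myeloid factor PU.1, or its reverse complement TTCCTC, and in C3ar1 a match to TGANTCA, the AP-1 motif.
C1qb: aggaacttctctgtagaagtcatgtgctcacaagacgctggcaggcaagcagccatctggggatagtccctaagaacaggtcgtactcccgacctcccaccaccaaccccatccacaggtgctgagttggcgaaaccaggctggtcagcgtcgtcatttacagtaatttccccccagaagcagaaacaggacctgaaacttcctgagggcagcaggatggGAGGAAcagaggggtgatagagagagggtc
C1qc: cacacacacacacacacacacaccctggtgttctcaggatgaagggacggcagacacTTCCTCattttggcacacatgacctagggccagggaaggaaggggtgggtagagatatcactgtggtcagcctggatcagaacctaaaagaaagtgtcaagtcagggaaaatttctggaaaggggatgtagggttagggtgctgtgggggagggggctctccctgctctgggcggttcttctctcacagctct
C3ar1: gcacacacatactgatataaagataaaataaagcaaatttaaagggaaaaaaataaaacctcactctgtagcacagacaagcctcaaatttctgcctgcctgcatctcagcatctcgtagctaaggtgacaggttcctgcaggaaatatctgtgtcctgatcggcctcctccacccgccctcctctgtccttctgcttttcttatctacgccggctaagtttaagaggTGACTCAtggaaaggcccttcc
GAGGAA stood at -30 to -25 from the start of C1qb, and its complement at -193 to -188 in C1qc. TGANTCA stood at -22 to -16 in C3ar1. Searched on both strands, GAGGAA occurred in 2 of the 6 members' windows and in 23.3% of 32851 windows of the same length, and TGANTCA in 1 of 6 and in 6.75%. TGCTGAC (Maf), GAAA and GAAA 2 bases apart (IRF), GGGA and TTCC 2 bases apart (NF-kB), and TTC and GAA 3 bases apart (STAT) were in 0 of the 6, against 3.81%, 2.98%, 1.21% and 7.02% of all windows. A match is a string of letters in a window and shows no binding.

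All values below are log2 of the deposited intensity, on which a difference of 1 is 2-fold, and levels are not compared between genes because each has its own probes. Across the 18 arrays the members spanned wide ranges: 6.73 to 11.46 for C1qa, 7.23 to 13.28 for C1qb, 6.24 to 12.45 for C1qc, 6.30 to 9.47 for Cfb, 8.94 to 12.23 for Cfp, 5.99 to 12.15 for C3ar1 and 5.17 to 9.65 for C5ar1. WT lung CD103+ cells had the lowest group mean for all 7. The C1q chains were highest in lung CD11b+ cells, the 2 alternative pathway genes in WT BMDC, and both receptors in BRAF BMDC.

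**Figure D1:**
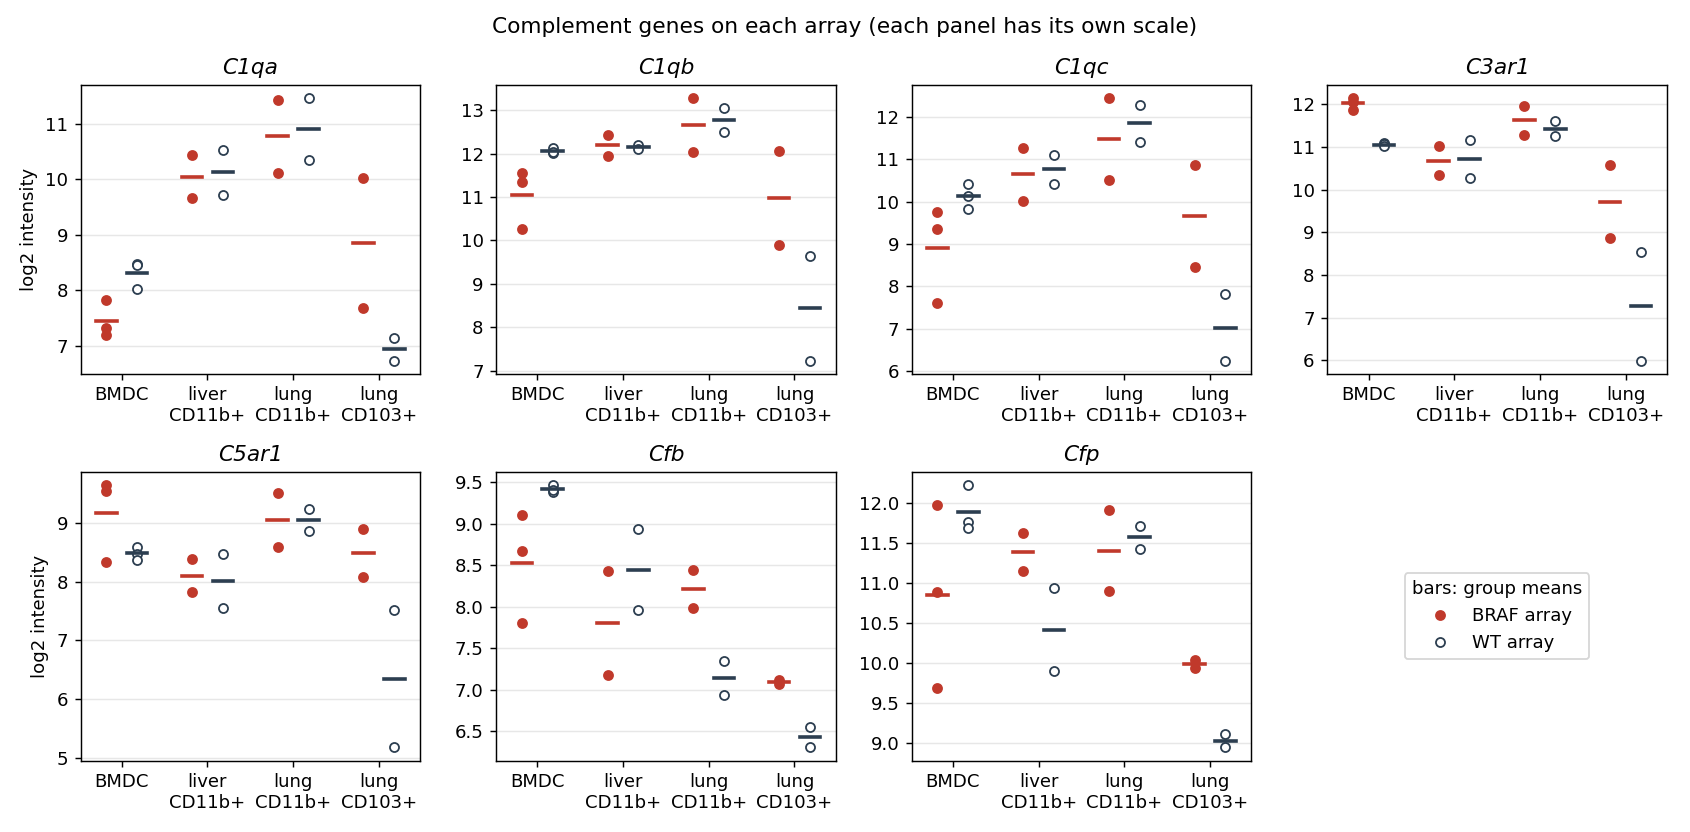
Log2 intensity (vertical axis) of the 7 measured members on each of the 18 arrays, by population, with BRAF left of WT; each point is 1 array and each short bar a group mean. The mean of the WT lung CD103+ arrays is the lowest in every panel, although for C1qc BRAF BMDC replicate 2 (7.60) lies below 1 of these arrays (7.81), and the 3 C1q panels share their order of populations more closely with each other than with Cfb.

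C1qa averaged 10.77 ± 0.94 in BRAF and 10.90 ± 0.79 in WT lung CD11b+ cells, 10.05 ± 0.55 in BRAF and 10.13 ± 0.57 in WT liver, 8.85 ± 1.65 in BRAF and 6.94 ± 0.29 in WT lung CD103+ cells (SD, n = 2 each), and 7.45 ± 0.33 in BRAF and 8.32 ± 0.25 in WT BMDC (SD, n = 3 each). With the groups ordered by mean, the lung CD11b+, liver and BRAF lung CD103+ groups overlapped their neighbours, and WT BMDC, BRAF BMDC and WT lung CD103+ cells, the lowest, did not overlap one another. C1qb and C1qc kept lung CD11b+ cells at the top, C1qb at 12.65 ± 0.88 in BRAF and 12.77 ± 0.38 in WT, and C1qc at 11.48 ± 1.37 in BRAF and 11.85 ± 0.62 in WT. The 2 lung CD11b+ genotypes overlapped for every chain. The chains parted in BMDC: C1qb minus C1qa was 2.94 to 4.15 on the 6 BMDC arrays, 1.58 to 2.38 on the 8 liver and lung CD11b+ arrays and 0.49 to 2.49 on the 4 lung CD103+ arrays.

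The anaphylatoxin receptors followed another order. C3ar1 averaged 12.02 ± 0.15 in BRAF and 11.06 ± 0.04 in WT BMDC (SD, n = 3 each), 11.63 ± 0.48 in BRAF and 11.43 ± 0.23 in WT lung CD11b+ cells, 10.68 ± 0.47 in BRAF and 10.73 ± 0.63 in WT liver, and 9.72 ± 1.21 in BRAF and 7.27 ± 1.80 in WT lung CD103+ cells (SD, n = 2 each). BRAF BMDC and both lung CD11b+ groups, the highest 3, overlapped in turn, and BRAF and WT lung CD103+ cells, the lowest 2, did not. C5ar1 had the same first 3 groups and the same last one. Cfb averaged 8.53 ± 0.66 in BRAF and 9.42 ± 0.04 in WT BMDC, the highest 2 groups, without overlap. Cfp averaged 10.86 ± 1.15 in BRAF and 11.90 ± 0.29 in WT BMDC, and 9.99 ± 0.07 in BRAF and 9.02 ± 0.12 in WT lung CD103+ cells, its lowest groups.

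In the lung, CD103+ cells were far below CD11b+ cells for C1q, both receptors and properdin in WT mice. This contrast compares RNA of 2 populations sorted in bulk, in which transcripts of other lists differed too, as given below. C1qb read 12.07 and 9.89 on the BRAF lung CD103+ arrays and 13.28 and 12.03 on the BRAF lung CD11b+ arrays. In WT mice it read 9.64 and 7.23 in CD103+ cells and 12.51 and 13.04 in CD11b+ cells. Both genotypes had their CD103+ cells lower on average, and only the WT populations were fully apart for this gene.

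C3ar1 read 10.57 and 8.86 in BRAF lung CD103+ cells and 11.97 and 11.28 in BRAF lung CD11b+ cells. In WT it read 8.54 and 5.99 in CD103+ cells and 11.27 and 11.60 in CD11b+ cells. The populations did not overlap in either genotype, and the lowest value was again WT lung CD103+ replicate 3. On that array C3ar1 was at the 36th percentile, C1qc at the 42nd and C5ar1 at the 19th, so part of the WT differences below rests on low signals.

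By limma with adjustment over 15365 genes, 0 of 7 members were called in BRAF mice, where 1.21% of all genes tested were called, and 6 of 7 were called lower in CD103+ cells of WT mice, where 2.37% of genes were. Without regard to the test, 4 of 7 were lower without overlap in BRAF (17.2% of genes) and 7 of 7 in WT (18.7%). At an unadjusted p under 0.05, 6 of 7 members passed in each genotype, against 7.33% of all genes in BRAF and 10.99% in WT. In WT, C1qa fell by 3.96 ± 0.62 (SE; adjusted p = 0.00143), which is 15.6-fold lower. C1qb fell by 4.34 ± 0.72 (adjusted p = 0.00222) and C1qc by 4.83 ± 0.84 (adjusted p = 0.00328), 20.3-fold and 28.4-fold lower. Among the receptors, C3ar1 fell by 4.17 ± 0.64 (adjusted p = 0.00124) and C5ar1 by 2.71 ± 0.62 (adjusted p = 0.0198). A fit of only these 2 WT groups ended both receptor calls (adjusted p = 0.0532 for C3ar1 and 0.134 for C5ar1) and left 4 members called. Properdin fell by 2.55 ± 0.54 (adjusted p = 0.0133). Cfb, the exception, differed by -0.71 ± 0.43 (adjusted p = 0.693). Macrophage markers were lower on average in WT CD103+ cells for 10 of 11 measured, with 7 called lower and a median of -2.82. Monocyte markers were lower for 4 of 6 measured and higher for 2, with 3 called lower and a median of -1.86. Type 2 dendritic cell markers were lower for 7 of 7, with 4 called lower and a median of -3.12. Those of type 1 were higher for 9 of 9, with 7 called higher and a median of 2.82. Itgam and Itgae, whose proteins were used in the sort, are in these dendritic cell lists. Interferon response genes were lower for 7 of 9 and higher for 2, with 3 called lower and a median of -1.10. The part of these lists in the complement differences between lung populations was not tested.

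The same differences in BRAF mice were -1.92 ± 0.62 for C1qa (adjusted p = 0.238), -1.68 ± 0.72 for C1qb (0.567), -1.83 ± 0.84 for C1qc (0.658), -1.91 ± 0.64 for C3ar1 (0.271), -0.57 ± 0.62 for C5ar1 (1), -1.42 ± 0.54 for Cfp (0.432) and -1.12 ± 0.43 for Cfb (0.43). The median over the 7 members was -1.68 in BRAF and -3.96 in WT, beside -0.02 and 0.07 over all genes tested. Without WT lung CD103+ replicate 3, 3 members were called in WT (C1qa, C1qb and C3ar1) and C5ar1 differed by -1.53; without replicate 1 of that group 5 were called. Without WT lung CD11b+ replicate 3, 3 were called, and without replicate 1, 4. Without BRAF lung CD103+ replicate 1, C1qa was called in BRAF mice at -3.09 (adjusted p = 0.0108), and C1qb and C1qc differed by -2.77 and -3.03. Without replicate 2 of that group the differences were -0.75 for C1qa, -0.59 for C1qb, -0.62 for C1qc and -1.05 for C3ar1. C5ar1 differed by -0.16 without that array and by -0.98 without replicate 1. Without BRAF lung CD11b+ replicate 1, the differences were -1.26 for C1qa, -1.05 for C1qb, -0.86 for C1qc, -0.11 for C5ar1 and -0.91 for Cfp, and without replicate 2, -2.79 for C1qc and -1.03 for C5ar1.

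**Figure D2:**
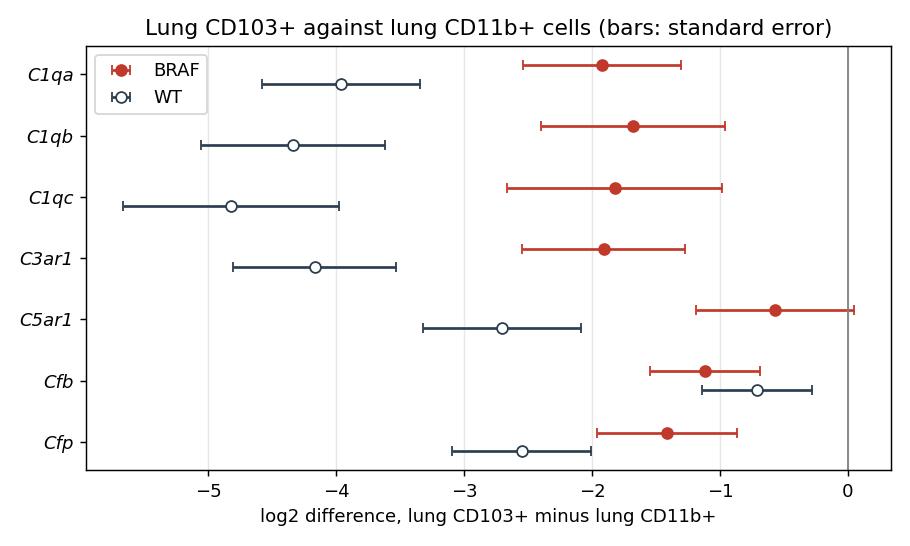
Log2 difference, lung CD103+ minus lung CD11b+ (horizontal axis), for the 7 members in BRAF (filled) and WT mice (open), with standard errors from limma. All 14 points lie below 0, and 6 WT points lie further from 0 than the BRAF point of the same gene, with Cfb the exception.

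Between genotypes, C1q and both receptors differed most in lung CD103+ cells, where all 7 members were higher on both BRAF arrays than on both WT arrays and none was called. Cfb differed by more in lung CD11b+ cells (1.07) and BMDC (-0.89) than here (0.66), and Cfp by as much in liver (0.97) and BMDC (-1.04). C1qa read 10.02 and 7.68 in BRAF and 7.15 and 6.73 in WT. C1qc read 10.85 and 8.45 in BRAF and 7.81 and 6.24 in WT, and C1qb is given above. C5ar1 read 8.89 and 8.08 in BRAF and 7.52 and 5.17 in WT. The value of 5.17, on WT replicate 3, lay below the 30th percentile of that array (5.69). BRAF replicate 1 was the high array of its pair for every member, and WT replicate 3 the low array of its pair for C1q and both receptors, though not for Cfb and Cfp.

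Of all genes tested, 9.16% were likewise higher without overlap in BRAF lung CD103+ cells. The fit called 0 of 7 members and 0.0846% of all genes. Unadjusted p was under 0.05 for 5 of 7 members and 4.26% of all genes. C3ar1 had the smallest p of the 7, at a difference of 2.45 ± 0.64 (adjusted p = 0.252), and C5ar1 differed by 2.14 ± 0.62 (0.35). The C1q chains differed by 1.91 ± 0.62 (C1qa, adjusted p = 0.5), 2.54 ± 0.72 (C1qb, 0.332) and 2.63 ± 0.84 (C1qc, 0.489). Cfp read 10.04 and 9.94 in BRAF and 8.94 and 9.11 in WT, a difference of 0.97 ± 0.54 (adjusted p = 1), and Cfb differed by 0.66 ± 0.43 (1). The median over the members was 2.14, beside -0.08 over all genes. Without WT replicate 1, 3 members were called: C1qb at 3.75, C3ar1 at 3.73 and C5ar1 at 3.31 (adjusted p = 0.0292, 0.00447 and 0.0118). Without BRAF replicate 2, C1qa was called at 3.08 (0.0279). Other arrays left out brought the differences down, with none called: without BRAF replicate 1, C1qa differed by 0.74, C1qb by 1.45, C1qc by 1.43 and C3ar1 by 1.60, and without WT replicate 3, C1qb differed by 1.34, C3ar1 by 1.18 and C5ar1 by 0.96. Those fits leave 1 array in a group, which is then assumed to vary like the others.

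**Figure D3:**
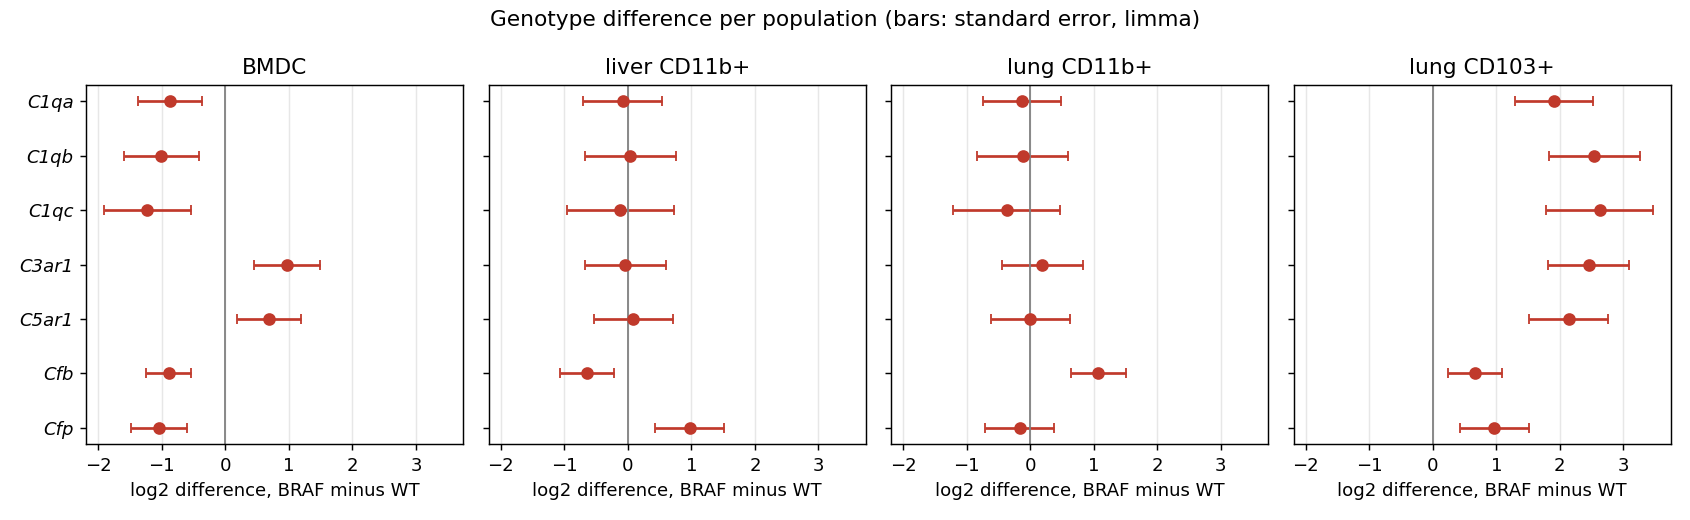
Log2 difference, BRAF minus WT (horizontal axis), for the 7 members in the 4 populations, with standard errors from limma. In lung CD103+ cells all 7 lie above 0; in BMDC the C1q chains, Cfb and Cfp lie below 0 and both receptors above; none passed the test in any population.

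Macrophage transcripts were also higher on average on the BRAF lung CD103+ arrays. Of 12 macrophage markers listed 11 were measured, and 10 of the 11 were higher on average in BRAF than in WT lung CD103+ cells, with a median difference of 1.52 and 0 called. Their summed intensity was 9806 to 15599 on the BRAF and 4708 to 7034 on the WT arrays. Adgre1, which encodes the macrophage protein F4/80, read 10.32 and 9.42 in BRAF and 8.58 and 6.92 in WT, a difference of 2.12 ± 0.41 (adjusted p = 0.0783). The mannose receptor Mrc1 differed by 3.48 ± 0.75 (adjusted p = 0.128). Both differences were above the list median, and 1 of the 11 markers was lower in BRAF. The macrophage markers with the highest means over the 18 arrays were others, namely Cd68, Sirpa and Axl. No marker stood at 0, which intensity values do not reach; on WT replicate 3, Mertk and Mrc1 were at the 15th and 19th percentiles of the array. Other lists were higher on average in the same BRAF cells, also with 0 called: 4 of 6 measured monocyte markers, with a median of 1.91 and a summed intensity of 7641 to 11761 in BRAF and 3889 to 4007 in WT, 6 of 8 Kupffer cell markers with a median of 1.48, and 9 of 9 interferon response genes with a median of 1.02. The summed intensity of the Kupffer cell markers overlapped, at 1339 to 2254 in BRAF and 1083 to 1844 in WT, and that of the interferon response genes did not, at 2090 to 3001 in BRAF and 1227 to 1395 in WT. Of 6 measured T and NK cell markers 3 passed the filter, all 3 lower on average in BRAF with a median of -1.21 and 0 called; the summed intensity of the 6 was 285 to 456 in BRAF and 250 to 3508 in WT. Hepatocyte transcripts were higher for 6 of 7 measured, with a median of 1.07 and 0 called. Dendritic cell lists went the other way. Conventional dendritic cell markers were lower on average in BRAF for 8 of 9, with a median of -0.20 and 1 called. Type 1 dendritic cell markers were lower for 7 of 9, with a median of -0.25 and 1 called. The median over all genes was -0.08. The part of these lists in the complement differences was not tested, and in bulk samples fewer cells of a type and less RNA per cell cannot be told apart.

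The mean log2 of the macrophage markers was 8.79 to 9.85 in BRAF and 7.09 to 8.29 in WT lung CD103+ cells, 10.07 to 10.42 in BRAF and 10.02 to 10.26 in WT lung CD11b+ cells, 9.30 to 9.69 in BRAF and 9.27 to 9.56 in WT liver, and 9.09 to 9.95 in BRAF and 9.72 to 9.99 in WT BMDC. WT lung CD103+ replicate 3 was lowest and BRAF lung CD11b+ replicate 1 highest of the 18 arrays, both for this mean and for the mean of the C1q chains, at 6.73 and 12.39. Transcripts of other cells also differed between single lung CD103+ arrays: the hepatocyte gene Alb read 10.98 and 6.57 in BRAF and 7.80 and 5.94 in WT, and the cytotoxic lymphocyte gene Nkg7 read 7.01 and 6.39 in BRAF and 11.34 and 5.69 in WT.

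**Figure D4:**
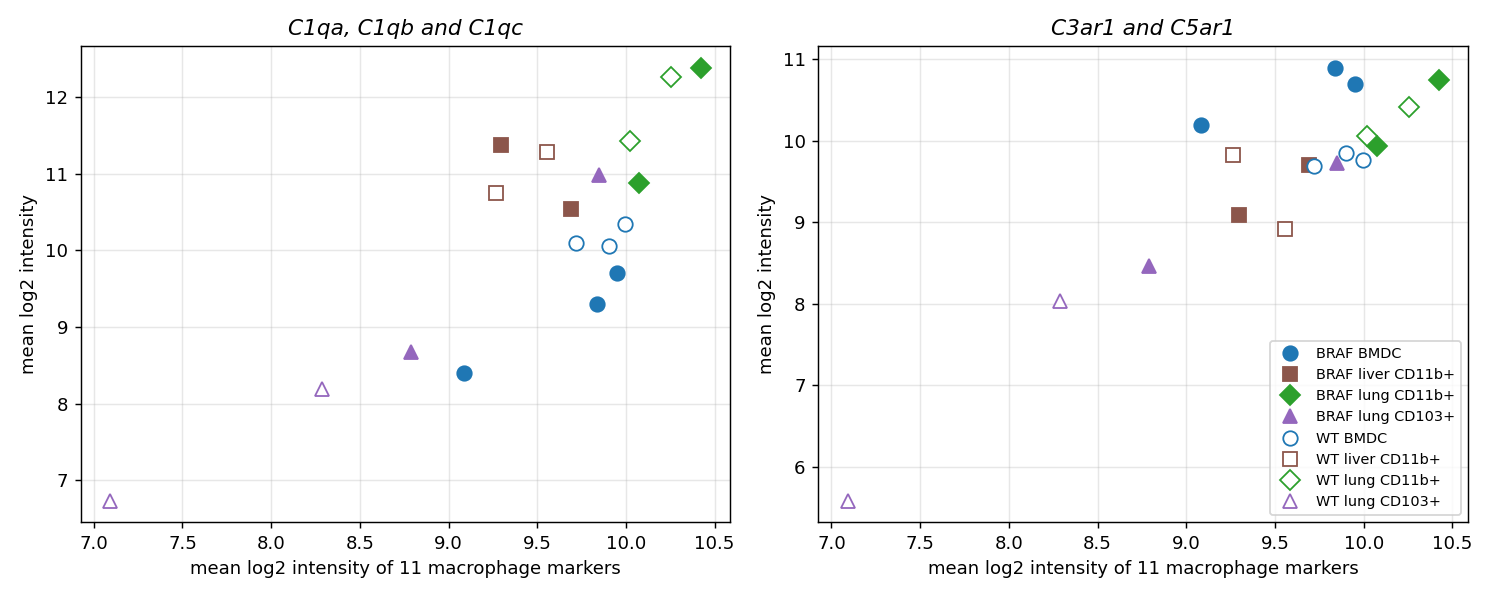
Mean log2 of the C1q chains and of the 2 receptors (vertical axes) against the mean log2 of 11 macrophage markers (horizontal axis) on the 18 arrays, by population and genotype. The WT lung CD103+ arrays are at the lower left, and the BRAF BMDC arrays hold receptor means of 10.20 to 10.90, the array at 10.90 being the highest of the 18.

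In BMDC, C1q, Cfb and Cfp were lower and both receptors higher on average in BRAF, and none was called. C1qa read 7.20, 7.32 and 7.82 in BRAF and 8.03, 8.47 and 8.45 in WT. C1qb read 11.35, 10.26 and 11.55 in BRAF and 12.01, 12.13 and 12.03 in WT. C1qc read 9.34, 7.60 and 9.75 in BRAF and 10.13, 10.43 and 9.82 in WT. Every BRAF array was below every WT array for the 3 chains, and BRAF replicate 2, the array of narrowest spread, was lowest for C1qb and C1qc.

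Cfb read 8.67, 7.81 and 9.11 in BRAF and 9.39, 9.47 and 9.41 in WT, also without overlap. C3ar1 read 12.15, 12.06 and 11.86 in BRAF and 11.10, 11.06 and 11.02 in WT. It was the member that was higher in BRAF without overlap. C5ar1 read 9.65, 8.34 and 9.54 in BRAF and 8.60, 8.48 and 8.38 in WT, where BRAF replicate 2 lay below all WT arrays. Cfp read 10.89, 9.69 and 11.98 in BRAF and 11.76, 12.23 and 11.69 in WT, and here BRAF replicate 3 lay within the WT range.

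Thus 4 members were lower without overlap, beside 9.08% of all genes tested, and 1 was higher, beside 6.99%. The limma fit called 0 of 7 members and 0.521% of all genes, and unadjusted p was under 0.05 for 2 members and 6.65% of genes. Differences were -0.87 ± 0.50 for C1qa, -1.01 ± 0.59 for C1qb, -1.23 ± 0.69 for C1qc, 0.96 ± 0.52 for C3ar1 and 0.69 ± 0.50 for C5ar1, each at an adjusted p of 0.737. Cfb differed by -0.89 ± 0.35 (adjusted p = 0.634) and Cfp by -1.04 ± 0.44 (0.7). Leaving out BRAF replicate 2 brought C1qb to -0.61, C1qc to -0.58, Cfb to -0.53 and Cfp to -0.46, and C5ar1 to 1.11; leaving out BRAF replicate 1 brought C5ar1 to 0.45, and leaving out BRAF replicate 3 brought Cfp to -1.60, with none called in any of these fits. With array weights, which gave BRAF BMDC replicate 2 a weight of 0.11 beside up to 6.02 for the other arrays, 5 members were called, along with 10.8% of all genes: C1qa at -0.95, Cfb at -0.67 and Cfp at -0.86 lower, and C3ar1 at 1.01 and C5ar1 at 1.09 higher (adjusted p = 0.0384, 0.00751, 0.0238, 0.0258 and 0.0101). Among macrophage markers 3 of 11 were higher and 8 lower on average in BRAF BMDC, with a median of -0.31 and 0 called. Their summed intensity was 9941 to 20805 in BRAF and 16956 to 21504 in WT. Interferon response genes were higher on average for 8 of 9 measured and lower for 1, with 4 called higher. The summed intensity of these genes did not overlap, at 1838 to 3164 in BRAF and 989 to 1193 in WT. Conventional dendritic cell markers were lower for 6 of 9 and higher for 3, with 1 called lower. The part of these lists in the complement differences of BMDC was not tested.

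In the CD11b+ cells of lung and liver, C1q and both receptors differed between genotypes by less than their standard errors. Cfb was the member that differed most in lung CD11b+ cells, at 7.98 and 8.44 in BRAF and 6.94 and 7.35 in WT. The difference was 1.07 ± 0.43 (adjusted p = 0.565), without overlap, as for 21.6% of all genes in that direction. The remaining members lay between -0.37 ± 0.84 (C1qc) and 0.19 ± 0.64 (C3ar1). The fit called 0 of 7 members and 0.338% of genes, and unadjusted p was under 0.05 for 1 member and 6.71% of genes.

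In liver CD11b+ cells Cfp read 11.15 and 11.63 in BRAF and 10.93 and 9.90 in WT, without overlap, as for 22.7% of all genes in that direction. Its difference was 0.97 ± 0.54 (adjusted p = 0.412). Cfb differed by -0.64 ± 0.43 (adjusted p = 0.483), with 7.18 and 8.43 in BRAF and 8.93 and 7.96 in WT, and the other members lay between -0.12 ± 0.84 (C1qc) and 0.09 ± 0.62 (C5ar1). Leaving out 1 liver array at a time moved Cfb between -1.27 (without BRAF replicate 3) and -0.014 (without BRAF replicate 2), and Cfp between 0.45 (without WT replicate 3) and 1.49 (without WT replicate 1), with neither called. Here too 0 of 7 members were called, beside 0.215% of genes, with unadjusted p under 0.05 for 0 members and 14.1% of genes.

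Averaged over the 4 populations, the genotype difference was above 0 for all 7 members and passed the test for 0, beside 0.989% of all genes. Unadjusted p was under 0.05 for 2 members and 9.37% of genes, the 2 being the receptors: C3ar1 at 0.89 ± 0.31 (adjusted p = 0.257) and C5ar1 at 0.73 ± 0.30 (0.402). The C1q chains averaged 0.21 ± 0.30 (C1qa), 0.36 ± 0.34 (C1qb) and 0.23 ± 0.40 (C1qc), Cfp 0.18 ± 0.26 and Cfb 0.05 ± 0.21. Without WT lung CD103+ replicate 1, C3ar1 was called at 1.21 (adjusted p = 0.0186), and without replicate 3 of that group C3ar1 differed by 0.57 and C5ar1 by 0.44.

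Whether the genotype difference varied between populations was tested directly. The moderated F test called 0 of 7 members and 0.124% of all genes, with unadjusted p under 0.05 for 5 members and 9.10% of genes. Its adjusted p was 0.371 for Cfb, 0.414 for C1qb, 0.472 for C1qc, 0.491 for C1qa, 0.507 for Cfp, 0.563 for C3ar1 and 0.613 for C5ar1. Taken in pairs, the difference in BMDC minus that in lung CD103+ cells was -2.78 ± 0.80 for C1qa, -3.55 ± 0.93 for C1qb and -3.86 ± 1.09 for C1qc (adjusted p = 0.432, 0.312 and 0.408). The difference in lung CD11b+ minus that in lung CD103+ cells was -2.04 ± 0.87 for C1qa, -2.66 ± 1.02 for C1qb, -3.00 ± 1.19 for C1qc, -2.26 ± 0.90 for C3ar1 and -2.14 ± 0.87 for C5ar1 (adjusted p = 1 for each). That last contrast is also the gap between the 2 lung contrasts above. No member passed in any of the 6 pairs, and the share of all genes called was 0.137% for BMDC against liver, 0.13% for BMDC against lung CD11b+, 0.0521% for BMDC against lung CD103+ cells and 0% for the other 3 pairs. The genotype differences of BMDC and lung CD103+ cells are therefore not shown to differ for these genes.

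Against lung CD11b+ cells, BMDC differed in C1qa and Cfb. These populations also differ in age, culture and sorting, which cannot be told apart from the cell type. C1qa was lower in BMDC of both genotypes, with differences of -3.32 ± 0.56 (adjusted p = 0.00336) in BRAF and -2.59 ± 0.56 (0.00962) in WT. Cfb was higher in WT BMDC by 2.28 ± 0.39 (adjusted p = 0.00175), whereas in BRAF the difference was 0.32 ± 0.39 (0.845). In BRAF, 1 of 7 members was called, beside 2.78% of genes, and in WT 2 of 7, beside 8.14%. Of the partner chains, C1qb differed by -1.60 ± 0.66 in BRAF (adjusted p = 0.305) and by -0.72 ± 0.66 in WT (0.698), and C1qc by -2.58 ± 0.77 in BRAF (0.107) and by -1.72 ± 0.77 in WT (0.225). With array weights C1qc was called in BRAF at -2.07 (adjusted p = 0.0228) and in WT at -1.60 (0.00887); a fit of only the 2 groups called it in WT (0.00346), along with C1qb (0.0173) and C5ar1 (0.0258). The C1qa call was lost without BRAF lung CD11b+ replicate 1 in BRAF (-2.66, adjusted p = 0.0984), where C1qb then differed by -0.98 and C1qc by -1.61, and without WT lung CD11b+ replicate 3 in WT (-2.03, 0.144), where C1qb then differed by -0.45.

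Between liver and lung CD11b+ cells, 0 of 7 members were called in BRAF (0.176% of genes) and 0 in WT (2.08%). At an unadjusted p under 0.05 there were 0 members in BRAF, beside 6.83% of genes, and 1 in WT, beside 24.7%. Without regard to the test, 2 members were lower in liver without overlap in BRAF (15.1% of genes), and in WT 5 were lower (35.5%) and 1 higher (28.4%). All 7 were lower on average in liver in BRAF, with a median of -0.72, and 6 of 7 in WT, with a median of -0.78. The exception was Cfb in WT, at 8.93 and 7.96 in liver and 6.94 and 7.35 in lung, a difference of 1.30 ± 0.43 (adjusted p = 0.11), which was called at 1.65 (0.0277) after quantile normalization.

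The wider complement system was read from 41 further genes, of which 39 were measured and 30 passed the filter: initiating and early components, terminal components, regulators and other receptors. The 30 held 9 early components, 4 terminal components, 8 regulators and 9 receptors or binding proteins. In each population and in the mean effect, the limma fit called 0 of the 30 between genotypes. Lung CD11b+ cells had 3 of the 30 at an unadjusted p under 0.05, liver and lung CD103+ cells 2 each, BMDC 1 and the mean of the populations 4, beside 6.71%, 14.1% (liver), 4.26% (lung CD103+), 6.65% and 9.37% of all genes. In lung CD103+ cells 19 of the 30 were higher and 11 lower on average in BRAF, with a median of 0.10, beside 2.14 for the members. The 9 receptors and binding proteins had 7 higher and a median of 0.68. Medians were 0.01 for early components, 0.02 for terminal components and 0.03 for regulators. On the lung CD103+ arrays these last lists had a mean log2 of 5.26 to 6.20, near the arrays' 30th percentiles of 5.62 to 5.85. The receptors and binding proteins had 8.10 to 9.41. Among early components, the C1q-associated protease C1ra read 5.99 and 6.42 in BRAF and 5.02 and 5.00 in WT lung CD11b+ cells, a difference of 1.20 ± 0.32 (adjusted p = 0.172). Both WT values lay below the 30th percentiles of the WT arrays (5.65 and 5.60). Cd55, which speeds the decay of convertases, averaged 4.57 ± 0.45 in BRAF and 6.07 ± 0.85 in WT lung CD11b+ cells (SD, n = 2 each; adjusted p = 0.67). Its BRAF mean lay below the 30th percentile of the BRAF arrays (5.74 on each). Cr1l, the rodent regulator Crry, differed by 0.88 ± 0.35 in liver (adjusted p = 0.292). Of the terminal components, C8a had the smallest p, at -0.62 ± 0.29 in liver (adjusted p = 0.356).

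Of the other receptors and binding proteins, Cd93, once described as a C1q receptor, read 10.13 and 7.32 in BRAF and 7.05 and 4.96 in WT lung CD103+ cells. Its difference was 2.72 ± 0.77 (adjusted p = 0.336), and its arrays kept the order of the C1q chains and of C3ar1. Itgam, the alpha chain of complement receptor 3, differed by 1.41 ± 0.42 in the same cells (adjusted p = 0.377). Between lung populations of WT mice, 3 of the 30 were called lower in CD103+ cells and 0 higher, beside 2.37% and 1.38% of all genes. On average 19 of the 30 were lower and 11 higher. In BRAF mice 1 was called lower and 0 higher, beside 0.306% and 0.905% of all genes. In WT, the second C5a receptor C5ar2 averaged 6.30 ± 0.06 in CD103+ and 7.73 ± 0.46 in CD11b+ cells (SD, n = 2 each) and fell by 1.43 ± 0.32 (adjusted p = 0.018). Lrp1, an endocytic receptor that binds calreticulin, fell by 1.94 ± 0.49 (adjusted p = 0.0375). Itgam was called in both genotypes, but its protein was used to sort these cells.

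In lung CD11b+ cells of BRAF mice, 1 array had far higher signals of several complement genes than the other. On replicates 1 and 2 of that group, Fcna (ficolin A, which starts the lectin pathway) read 11.44 and 7.55, C6 (a terminal component) 9.34 and 5.19, and C4b (the classical component C4) 9.24 and 6.25. Vsig4, the macrophage receptor for C3 fragments, read 11.94 and 5.87, and Cd59a, which blocks the membrane attack complex, 9.20 and 4.88. WT arrays of this population lay at 8.06 and 8.19 for Fcna, 6.11 and 5.49 for C6, 7.33 and 7.39 for C4b, 7.90 and 7.98 for Vsig4 and 4.53 and 4.88 for Cd59a. Cd5l, a secreted macrophage protein, read 10.33 and 5.20 in BRAF and 5.50 and 5.24 in WT. The mean log2 of the 8 Kupffer cell markers was 9.08 on replicate 1 and 6.64 on replicate 2 in BRAF, and 7.08 to 7.14 in WT. Other lists were higher on replicate 2. Alveolar macrophage markers averaged 7.31 on replicate 1 and 8.30 on replicate 2 in BRAF, and 6.49 to 7.07 in WT. Monocyte markers averaged 9.58 and 10.18 on the same BRAF replicates, and 9.06 to 9.28 in WT. Clec4f, which defines Kupffer cells, read 6.63 and 6.36 in BRAF and 6.24 and 6.10 in WT. C1qa read 11.43 and 10.11 on the same BRAF replicates and 10.34 and 11.46 in WT.

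Across the 18 arrays, C3ar1 and C5ar1 varied together (Pearson r = 0.90, Spearman rho = 0.78). So did C1qb and C1qc (0.95, 0.97), C1qa and C1qc (0.90, 0.96) and C1qa and C1qb (0.79, 0.94), while Cfb and C1qa did not (0.02, 0.15). These are descriptions over arrays that share populations and genotypes. With population means removed, C3ar1 and C5ar1 still had r = 0.92 (rho = 0.73), and C3ar1 and Cfb -0.09 (rho = -0.40). The tested genes with the pattern most like the mean of the C1q chains were Sesn1 (r = 0.93, Spearman rho = 0.89), Ppdpf (0.92, 0.87) and Cd300a (0.91, 0.88). For C3ar1 they were Wfdc17 (0.95, 0.73), Hacd4 (0.94, 0.72) and Zeb2 (0.94, 0.69), and for C5ar1 Cd33 (0.93, 0.83), Tlr7 (0.90, 0.78) and Mrc1 (0.90, 0.75). Cfb was closest to Hs1bp3 (0.94, 0.95) and Gpr84 (0.90, 0.89), and Cfp to Adam15 (0.96, 0.94) and Tbc1d2b (0.94, 0.88). After population means were removed, the macrophage gene Adgre1 was among the 3 closest to both receptors. Its r was 0.94 with C3ar1 (rho = 0.75) and 0.92 with C5ar1 (rho = 0.79). Tlr7 was closest to C3ar1 at 0.95 (rho = 0.79), and Apobec1 to C5ar1 at 0.94 (rho = 0.82). Adgre1 was not among the 3 closest to the mean of the C1q chains, to Cfb or to Cfp. For C1q these were Aoah (0.90, rho = 0.75), Ephx1 (0.89, rho = 0.93) and Ppdpf (0.88, rho = 0.79). Lap3 was closest to Cfb (0.92, rho = 0.86) and 0610012G03Rik to Cfp (0.95, rho = 0.90).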

How the data were processed

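Trizol extracts of total RNA carried a biotin label, per the labels. The authors deposited intensity values on a linear scale, and their normalization is not stated in the labels or headers; all later steps were run here. Of 24922 probe sets, 21425 had 1 gene symbol in the platform annotation and were used, with the highest-mean probe set per gene. Log2 was taken with no added constant. Group means were fitted over all 18 arrays with limma 3.58.1 in R 4.3.3 (10 residual degrees of freedom, prior 4.8), because 6 of the 8 groups hold 2 arrays. The p-values from limma were adjusted by Benjamini-Hochberg over 15365 genes, with calls at an adjusted p under 0.05. Errors after a difference are standard errors; those after a group mean are SD. Plots were made with matplotlib 3.10.9 and tables with pandas 2.3.3 and numpy 2.4.6 in Python 3.11.15. The fits were tested on simulated data.

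The members and lists were chosen with earlier results of these data known. Named beyond the members were a selection of the 3 other complement genes with the smallest p in each list, some of the highest marker genes, and the 3 genes most like each member. Some marker genes named, Adgre1 and Mrc1 among them, were not the highest of their list. Genes named for single arrays, for calls between populations or as defining markers were chosen after their values were seen. Other settings tried were array weights, trend and robust eBayes, quantile normalization, median centring, other filters, probe sets averaged per gene, replicate blocks, the compared groups alone, and each array left out in turn. No arrays were duplicates.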

Additional observations from a re-analysis of the deposited data

How the results depend on the processing

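Counts of members called changed as follows. Array weights gave 5 calls between genotypes in BMDC, 1 in the F test (Cfb) and 2 for BMDC against lung CD11b+ cells in BRAF. They also added C1qc to the members called for BMDC against lung CD11b+ cells in WT. Quantile normalization gave 1 for liver against lung CD11b+ cells in WT, and a fit of only the groups compared gave 4 for lung CD103+ against CD11b+ cells in WT, where 6 had been called, and 5 for BMDC against lung CD11b+ cells in WT. Leaving out 1 array at a time gave 0 to 3 calls between genotypes in lung CD103+ cells, 0 to 1 in the mean effect, 0 to 1 for lung CD103+ against CD11b+ cells in BRAF and 3 to 5 in WT, and 0 to 1 for BMDC against lung CD11b+ cells in BRAF and 1 to 2 in WT. The causes were not tested.

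Differences that turned their sign were mostly within 1 standard error of 0. In liver between genotypes, quantile normalization gave -0.15 for C1qb and -0.27 for C5ar1, centring gave 0.00537 for C3ar1, and leaving out the 2 arrays of narrowest spread, chosen after seeing the data, gave -0.00564 for C1qb and 0.40 for C3ar1. In lung CD11b+ cells centring gave -0.014 for C5ar1, and for Cfp in BMDC against lung CD11b+ cells in BRAF the same 2 arrays left out gave 0.032. Leaving out 1 array, the liver ranges were -0.48 to 0.32 for C1qa, -0.20 to 0.28 for C1qb, -0.74 to 0.50 for C1qc, -0.49 to 0.40 for C3ar1 and -0.37 to 0.55 for C5ar1. In lung CD11b+ cells they were -0.79 to 0.53 for C1qa, -0.74 to 0.50 for C1qb, -1.34 to 0.60 for C1qc, -0.15 to 0.54 for C3ar1, -0.46 to 0.46 for C5ar1 and -0.68 to 0.34 for Cfp. In the mean effect they were -0.086 to 0.50 for C1qa, -0.073 to 0.53 for C1qc and -0.11 to 0.21 for Cfb. For liver against lung CD11b+ cells in BRAF they were -1.09 to 0.16 for C1qb, -1.80 to 0.13 for C1qc, -1.04 to 0.22 for Cfb and -0.52 to 0.49 for Cfp, and for BMDC against lung CD11b+ cells in BRAF -0.34 to 0.58 for C5ar1 and -1.11 to 0.032 for Cfp.

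The labels do not say whether same-numbered arrays share an animal, and the data did not settle it: their deviations from group means correlated across genes at 0.47, -0.23 and -0.40 for BRAF and WT BMDC, at 0.22 (BRAF) and 0.16 (WT) for the 2 lung populations, where 2 pairs give 1 value, and at 0.35 and 0.36 (BRAF) and 0.25 and 0.33 (WT) for BMDC and liver. With the number as a replicate block, 2 members were called for BMDC against lung CD11b+ cells in BRAF; between genotypes it gave 0.31 for C1qa, 0.63 for C1qc and 0.21 for C3ar1 in liver and 0.25 for C1qa, 0.21 for C1qb, 0.18 for C1qc and 0.14 for Cfp in lung CD11b+ cells. The count of calls over all genes depended more on the setting: 80 in BMDC (20 to 1656), 33 in liver (1 to 358), 52 in lung CD11b+ cells (7 to 369), 13 in lung CD103+ cells (0 to 96), 152 in the mean effect (67 to 324), 19 in the F test (5 to 249), 186 (76 to 310) in BRAF and 576 (251 to 1280) in WT for the lung contrast, 427 (149 to 1906) in BRAF and 1250 (446 to 4668) in WT for BMDC against lung CD11b+ cells, and 27 (0 to 247) in BRAF and 319 (14 to 2093) in WT for liver against lung. Centring moved the median of all genes by -0.12 in liver against lung in WT and by -0.11 in BMDC against lung in BRAF. With 2 arrays in most groups, the number of arrays limits the precision.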
